A study of Mus musculus with 36 samples.

Results

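Glycosaminoglycans are the sulfated sugar chains of cartilage proteoglycans, and 38 genes that encode the enzymes, transporters and sulfatases of their synthesis were followed here among the 23059 genes with a RefSeq symbol in the RNA count tables. Each gene is represented by the RefSeq transcript that belongs to it, and by the transcript with the highest mean count over the 12 RNA libraries for the 7 genes with more than 1 transcript in the tables. Articular cartilage was microdissected from the tibial plateau and femoral condyle of male C57BL/6J mice, 12 weeks old at surgery. In the right knee the medial meniscus had been destabilized by surgery (DMM), which models osteoarthritis after joint injury, and the left knee of the same animals was left unoperated and served as control, so that no sham operation separates surgery from joint instability. Tissue was collected 4 or 12 weeks after surgery, and each library pooled cartilage of 3 knees. There were 3 control and 3 DMM libraries at each week for RNA-seq, and as many for reduced representation oxidative bisulfite sequencing (RRoxBS), whose DNA came from other mice than the RNA.

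Chondroitin, dermatan and heparan sulfate chains are all built on a short linker sugar that is attached to serine residues of a core protein. Xylosyltransferases start the linker, galactosyltransferases and a glucuronosyltransferase complete it, and polymerases then extend either a chondroitin chain or a heparan chain from it. Sulfotransferases use the sulfate donor PAPS to decorate the chains, epimerases turn part of the glucuronic acid into iduronic acid, and extracellular sulfatases trim heparan sulfate after secretion. In articular cartilage, chondroitin sulfate chains on aggrecan hold the water that resists compression, and heparan sulfate chains bind growth factors around the chondrocyte.

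The RNA libraries held 27706547 to 62737656 counts each. All 18 chondrocyte marker genes were detected, and their summed level ranged from 6345 to 27650 CPM (counts scaled to a common library size) per library without separating the limbs at either week. Marker genes of other tissues were detected in every group, and the summed levels of some lists differed between the groups. Whether chondrocytes themselves expressed the fibroblast and bone markers was not tested. The summed level of 19 skeletal muscle genes was 7102 to 26940 CPM in the 4-week control libraries and 712 to 4315 CPM in the 4-week DMM libraries, and overlapped between limbs at 12 weeks. The 9 fibroblast and synovium genes summed to 354 to 2049 CPM in control and 2964 to 4260 CPM in DMM at 4 weeks, and to 387 to 664 CPM against 1051 to 2325 CPM at 12 weeks. The 11 osteoblast and osteocyte genes were likewise higher in DMM, at 10970 to 12380 CPM against 17370 to 18220 CPM at 4 weeks and 10300 to 16160 CPM against 16520 to 19930 CPM at 12 weeks. No gene of these lists was at 0 in every library. Of the 38 genes, 33 share no exon bases with another annotated gene, and B3gat3 shares 293 bases (18.5% of its exon bases) with Gm36629 on the opposite strand, whose reads the counts cannot tell apart if strand was not used.

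Transcripts of all 7 steps of the pathway were detected. The highest levels per transcript length were those of single genes of sulfation and sugar supply, and not of these steps as a whole. Chst12, a chondroitin 4-O-sulfotransferase, had the highest mean level at 101 CPM per kb over the 12 libraries (42.7 to 148), followed by Ugdh, the dehydrogenase that makes UDP-glucuronic acid, at 95.8 CPM per kb (47.8 to 157). The library ranges of these neighbours overlap, and their order was the other way round in 4-week DMM, with means of 137 CPM per kb for Ugdh and 61.4 CPM per kb for Chst12. Csgalnact2, which starts the chondroitin chain, came next at 51.5 CPM per kb, and Ext2, a subunit of the heparan sulfate polymerase, followed at 34.8 CPM per kb. Papss2, which makes PAPS, stood at 27.0 CPM per kb. The linkage enzyme with the highest level was the glucuronosyltransferase B3gat3 at 21.0 CPM per kb, the higher of the extracellular sulfatases over the 12 libraries was Sulf2 at 16.5 CPM per kb (in 4-week DMM it was Sulf1, with 24.9 against 20.1 CPM per kb), and the highest heparan modification enzyme was the N-deacetylase and N-sulfotransferase Ndst2 at 9.13 CPM per kb. At the other end stood the 6-O-sulfotransferase Hs6st2, with 0.0854 CPM per kb and 8 to 34 counts per library, so that its comparisons rest on few reads.

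These leading genes were measured as follows in the single libraries. Ugdh was at 287, 276 and 133 CPM in 4-week control, 290, 328 and 383 CPM in 4-week DMM, 145, 179 and 117 CPM in 12-week control and 188, 299 and 184 CPM in 12-week DMM. Its DMM libraries lay above control at both weeks, by a narrow margin in each. Csgalnact2 was at 289, 243 and 161 CPM and at 199, 182 and 197 CPM at 4 weeks, and at 146, 213 and 119 CPM and at 130, 221 and 159 CPM at 12 weeks, control first, with overlapping limbs each time. Ext2 was at 122, 110 and 81.7 CPM in control and 108, 75.6 and 65.9 CPM in DMM at 4 weeks, and at 98.4, 102 and 86.4 CPM and at 108, 128 and 114 CPM at 12 weeks. Its limbs overlapped at 4 weeks and lay apart at 12 weeks, higher in DMM. Ndst2 was at 27.5, 35.8 and 36.9 CPM in control and 32.3, 21.5 and 16.4 CPM in DMM at 4 weeks, and at 46.3, 41.9 and 51.2 CPM and at 38.8, 34.7 and 44.6 CPM at 12 weeks, overlapping at both. None of these 4 genes passed the threshold in any of the 5 comparisons. Chsy1, a chondroitin synthase, Chst7, a chondroitin 6-O-sulfotransferase, the transporters Slc26a2 and Slc35d1, and Hs2st1, a heparan 2-O-sulfotransferase, had log2 fold changes between limbs of -0.28 to 0.13 at 4 weeks and 0.00 to 0.36 at 12 weeks, none past the threshold.

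**Figure D1:**
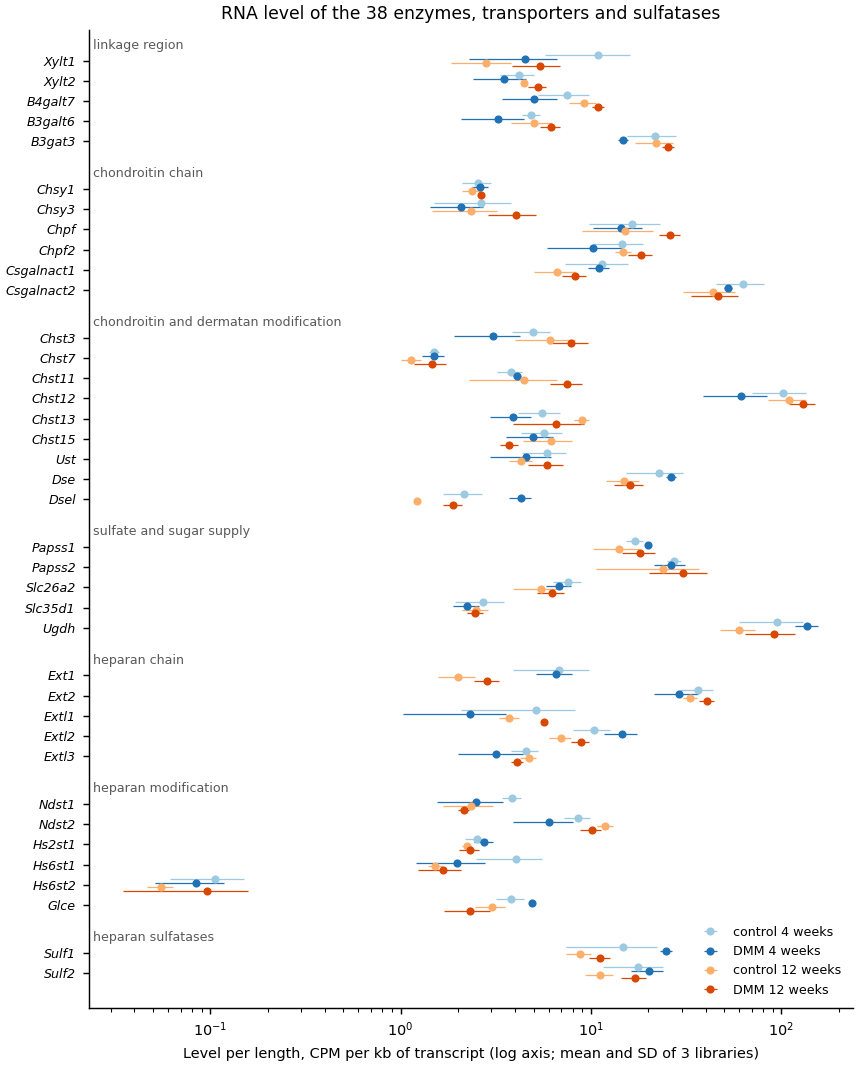
Level of each of the 38 genes per transcript length (CPM per kb, log axis), by role, with points at the mean of 3 libraries, bars of 1 SD and colours for limb and week. Chst12 and Ugdh lie at the top, averaging 101 and 95.8 CPM per kb over the 12 libraries, and Hs6st2 at the bottom with 0.0854 CPM per kb.

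Libraries of 1 group differed widely. The summed level of the 38 genes was 2134, 1949 and 1303 CPM in the 4-week control libraries, the widest range of the groups. It was 1616 to 1895 CPM in 4-week DMM, 1196 to 1740 CPM in 12-week control and 1598 to 2076 CPM in 12-week DMM. The sum did not separate the limbs at either week, with p = 0.9 at 4 weeks and p = 0.3 at 12 weeks in exact two-sided permutation tests, whose smallest possible p with 3 against 3 libraries is 0.1.

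The first comparison asked which genes of the pathway differ between DMM and control cartilage 4 weeks after surgery. None of the 38 genes, all of which passed the filter on low counts, differed at a Benjamini-Hochberg adjusted p under 0.05 in the quasi-likelihood test of edgeR, in which 16 of 21140 transcripts (0.0757%) did. At an unadjusted p under 0.05 there were 4 of the 38 (10.5%) against 13.7% of all transcripts. Leaving out DMM replicate 1 raised that count to 14 and leaving out control replicate 3 to 10, whereas leaving out either of the other DMM libraries gave 1. The share of all transcripts in these fits is not given, so a change of the 38 genes in particular cannot be read from the counts. DESeq2 called 1 gene, Dsel, where it called 3.47% of all. The median log2 fold change, DMM against control, was -0.26 against -0.03 over all transcripts, and 27 of the 38 values were below 0 where 52.5% of all were. The tissue is a bulk sample, so fewer chondrocytes and less RNA per chondrocyte cannot be told apart: the median log2 fold change of the 18 chondrocyte markers was -0.70. All 7 macrophage markers were above 0, with a median of 0.75. The part of the muscle, fibroblast, bone and macrophage marker differences in these values was not tested.

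Dsel, which resembles the dermatan sulfate epimerase Dse, had the smallest p. Its level was 13.9, 14.4 and 9.15 CPM in control and 22.8, 22.6 and 28.5 CPM in DMM. Every DMM library lay above every control library, and the log2 fold change was 0.98 ± 0.23 (SE, adjusted p = 0.248 in edgeR). Sulf1, an extracellular sulfatase that removes 6-O-sulfates from heparan sulfate, stood at 61.2, 106 and 38.4 CPM in control and at 114, 107 and 125 CPM in DMM. Its groups did not overlap either, although the second control library was almost level with the lowest DMM library. The log2 fold change of Sulf1, 0.75 ± 0.33, missed the threshold (adjusted p = 0.368 in edgeR) and was 0.46 to 1.2 when each library was left out. Dsel and Sulf1 were among 6 genes whose DMM libraries all lay above control, with Papss1, Ugdh, Extl2 and Glce, a count to be set beside 10.8% of all transcripts.

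The 5 linkage enzymes all had log2 fold changes below 0, with a median of -0.57. Xylt1, the xylosyltransferase that starts the linker, measured 49.2, 33.1 and 17.8 CPM in control and 21.4, 11.1 and 8.75 CPM in DMM. The first DMM library exceeded the third control library, and the log2 fold change was -1.27 ± 0.44 (adjusted p = 0.318 in edgeR). B3gat3 measured 45.1, 31.9 and 26.0 CPM in control and 25.1, 23.1 and 22.2 CPM in DMM, a log2 fold change of -0.55 ± 0.23 (adjusted p = 0.357 in edgeR). Its groups lay apart by less than 1 CPM. With B3galt6, a galactosyltransferase, and Hs6st1, a heparan 6-O-sulfotransferase, it made up the 3 genes whose DMM libraries all lay below control, where 10.4% of all transcripts did so. Hs6st1 was at 21.6, 11.7 and 11.5 CPM in control and at 10.7, 6.16 and 5.30 CPM in DMM, a log2 fold change of -1.01 ± 0.36 (adjusted p = 0.322 in edgeR). Chst12 was at 242, 180 and 126 CPM in control and at 154, 98.6 and 76.3 CPM in DMM, with overlapping groups and a log2 fold change of -0.73 ± 0.33 (adjusted p = 0.373 in edgeR). The highest control values of Xylt1, B3gat3, Hs6st1 and Chst12 were all in control replicate 1. Without that library the median over the 38 genes was -0.02, with 18 values above 0 and 20 below.

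**Figure D2:**
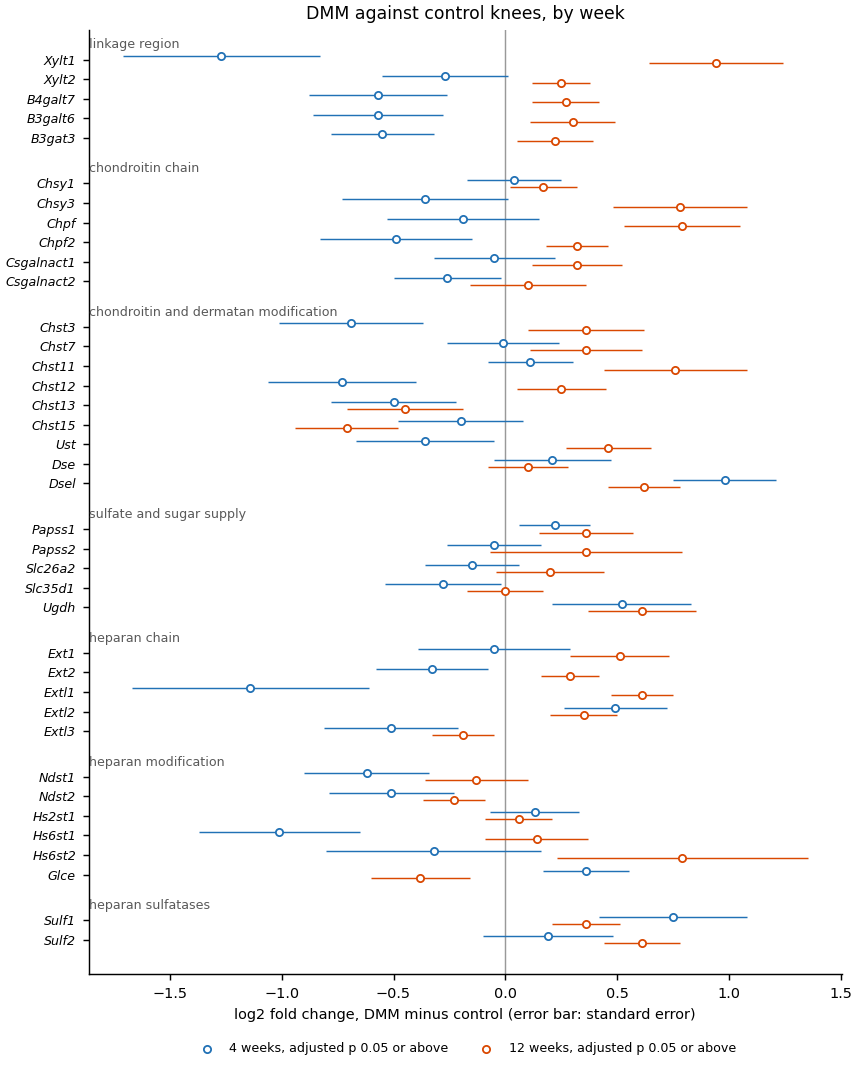
Log2 fold change, DMM against control, of each gene at 4 weeks and at 12 weeks with bars of 1 standard error (edgeR), ordered by role. At 4 weeks 27 of 38 values lie below 0 and at 12 weeks 31 lie above 0, and no gene passed the adjusted threshold at either week.

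By role, the other groups had medians between -0.42 for heparan modification and 0.47 for the pair of sulfatases at 4 weeks. The chondroitin chain enzymes had a median log2 fold change of -0.23, the chondroitin and dermatan modification enzymes -0.20, sulfate and sugar supply -0.05 and the heparan chain enzymes -0.33. No summed level of a role group reached the smallest p that the permutation test allows at this week.

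At 12 weeks the median of the 38 genes lay on the other side of 0, again with no gene past the threshold. None of the 38 genes was called by edgeR, which called 1 of 21010 transcripts (0.00476%). DESeq2 called 2, Extl1 and Dsel, and 4.26% of all transcripts. Unadjusted p-values under 0.05 were found for 15 of the 38 (39.5%), 14 of them higher in DMM, against 16.3% of all transcripts, of which 8.94% were higher. The count of 15 rested on single libraries: it was 5 and 6 without control replicates 1 and 3, 8 and 6 without DMM replicates 1 and 2, 11 without DMM replicate 3 and 19 without control replicate 2. Shares of all transcripts in these fits are not given. The median log2 fold change was 0.31 against 0.01 over all transcripts, and 31 of 38 values (81.6%) were above 0 where 51.5% of all were. The 18 chondrocyte markers were all above 0 too, with a median of 0.52, so a larger share of chondrocyte RNA in the DMM libraries cannot be told apart from more RNA per chondrocyte. The median over the 38 genes stayed between 0.18 and 0.39 when each library was left out in turn.

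Extl1, a glycosyltransferase of the exostosin family that builds heparan chains, had the smallest p at this week. It measured 13.2, 16.4 and 16.4 CPM in control and 23.2, 22.6 and 24.2 CPM in DMM. Replicates of each limb were close together and the groups were well apart, with a log2 fold change of 0.61 ± 0.14 (adjusted p = 0.21 in edgeR). Dsel measured 7.20, 7.20 and 6.77 CPM in control and 11.0, 12.0 and 9.55 CPM in DMM, a log2 fold change of 0.62 ± 0.16 (adjusted p = 0.21 in edgeR). Its DMM libraries lay above control at both weeks, as did those of Ugdh, and no gene lay apart in opposite directions at the 2 weeks. Sulf2, the other extracellular sulfatase, was at 40.5, 50.5 and 36.2 CPM in control and at 70.6, 69.4 and 53.2 CPM in DMM. The groups did not overlap, and the log2 fold change was 0.61 ± 0.17 (adjusted p = 0.223 in edgeR).

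Xylt1 stood at 6.87, 12.1 and 6.96 CPM in control and at 19.6, 18.8 and 11.1 CPM in DMM at 12 weeks. The second control library was above the third DMM library, and the log2 fold change was 0.94 ± 0.30 (adjusted p = 0.253 in edgeR), the largest of the 38. Chpf, a factor needed to polymerize chondroitin, stood at 42.2, 71.1 and 33.4 CPM in control and at 80.1, 96.3 and 76.6 CPM in DMM, with a log2 fold change of 0.79 ± 0.26 (adjusted p = 0.255 in edgeR). Its groups lay apart, with the second control library close to the DMM range. Chst15, which adds a 6-O-sulfate to 4-sulfated units, was the gene with the lowest value, at 35.9, 19.9 and 33.0 CPM in control and 20.1, 17.3 and 16.5 CPM in DMM. Its second control library fell within the DMM range and the log2 fold change was -0.71 ± 0.23 (adjusted p = 0.253 in edgeR). Without control replicate 2, Chpf and the 4-O-sulfotransferase Chst11 were called higher and Chst15 lower, among 860 transcripts called in all.

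Genes whose libraries all lay higher in DMM numbered 7 of 38 at 12 weeks (Xylt2, Chpf, Dsel, Ugdh, Ext2, Extl1 and Sulf2), beside 10% of all transcripts, and none lay wholly lower, beside 8.85%. Linkage and chondroitin chain enzymes were all above 0, with medians of 0.27 over 5 genes and 0.32 over 6 genes. The medians of chondroitin and dermatan modification (0.36), sulfate and sugar supply (0.36), heparan chain (0.35) and sulfatases (0.48) were above 0 as well, whereas that of heparan modification was -0.04. Summed levels lay apart between limbs for the linkage enzymes, by a narrow margin (83.1 to 115.5 CPM in control and 116.3 to 127 CPM in DMM). They also lay apart for the heparan chain enzymes (160 to 176 CPM and 192 to 214 CPM) and the sulfatases (70.2 to 91.9 CPM and 98.6 to 128 CPM). Each gave p = 0.1, the smallest that the exact permutation test of 3 against 3 libraries can give. The fibroblast and bone markers were higher in DMM at this week too, and the summed level of 7 macrophage markers was lower (3481 to 4162 CPM against 4284 to 5801 CPM). Below 0 were also all 10 neutrophil and bone marrow markers (median -0.52), all 8 erythroid markers (-0.32) and 7 of 8 endothelium markers (-0.29), with overlapping sums. Their part in these values was not tested.

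**Figure D3:**
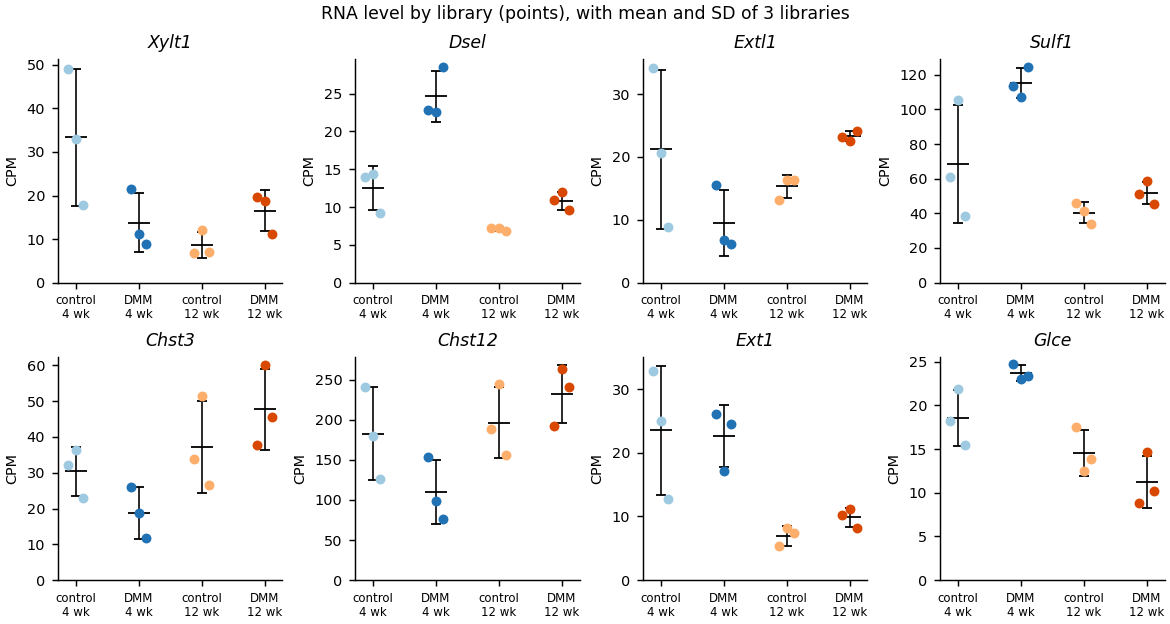
Level in each library (CPM, linear axis from 0) of Xylt1, Dsel, Extl1, Sulf1, Chst3, Chst12, Ext1 and Glce by limb and week, with lines at the mean and 1 SD of 3 libraries. Dsel lies higher in DMM at both weeks, and Ext1 is lower at 12 weeks than at 4 weeks in both limbs.

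Whether the effect of DMM differs between the weeks was tested as the interaction of limb and week over all 12 RNA libraries. No gene of the 38 and none of 21618 transcripts (0%) passed the adjusted threshold in edgeR. DESeq2 called 16 transcripts (0.0651%) and none of the 38. At an unadjusted p under 0.05 there were 11 of the 38 (28.9%), 10 of them with a higher DMM effect at 12 weeks, against 12.3% of all transcripts, of which 7.8% were higher. The count was 3 without control replicate 1 of either week, 18 without DMM replicate 1 of 4 weeks, and between these without each other library. Here too, shares of all transcripts in these fits are not given. The median of the interaction term was 0.41 on the log2 scale against 0.03 over all transcripts, and 31 of the 38 terms (81.6%) were above 0 where 51.9% of all were. Xylt1 had the largest term, 2.21 ± 0.59 (adjusted p = 0.405 in edgeR), since its value was -1.27 at 4 weeks and 0.94 at 12 weeks. Extl1 followed with 1.76 ± 0.60 at the same adjusted p, and all 5 linkage enzymes had terms above 0, with a median of 0.83. Glce, the epimerase of heparan sulfate, had the lowest term at -0.74 ± 0.30. Marker lists moved in the same test, with medians of 1.16 for the 18 chondrocyte genes, 2.40 for the 19 muscle genes and -0.99 for 7 macrophage genes. Their part in these terms was not tested.

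The difference between weeks was then compared within each limb, where week, age of the mice and the time at which libraries were made cannot be told apart. In control knees, none of the 38 genes and none of 21222 transcripts (0%) was called by edgeR. DESeq2 called 4 genes lower at 12 weeks (Xylt1, Ext1, Hs6st1 and Dsel), and 11.7% of all transcripts in either direction. In edgeR 10 genes had an unadjusted p under 0.05 (26.3% against 21.2% of all transcripts), 8 of them lower at 12 weeks, where 10.5% of all were lower, and the median log2 difference was -0.25 against -0.02. Without control replicate 2 of 12 weeks that median was -0.53, with 32 genes below 0, and without replicate 3 of 4 weeks it was -0.43. The count of 10 was 4 without replicate 2 of 4 weeks, 17 without replicate 3 of 4 weeks, and between these otherwise, again without the shares of all transcripts. Hs6st1 missed the threshold at -1.41 ± 0.27 (adjusted p = 0.0766 in edgeR), from 11.5 to 21.6 CPM at 4 weeks and 5.12 to 5.98 CPM at 12 weeks. Ext1, the other polymerase subunit of heparan sulfate, had a log2 difference of -1.77 ± 0.36 (adjusted p = 0.081 in edgeR). Xylt1 had the lowest value, -1.96 ± 0.41 (adjusted p = 0.0831 in edgeR). Without control replicate 3 of 4 weeks edgeR called 12 genes, 11 of them lower at 12 weeks, among 3926 transcripts. Markers of several cell types moved over the same weeks in control knees. The median log2 difference was -0.76 for the chondrocyte markers (15 of 18 below 0), -1.32 for muscle (19 of 19), -1.33 for adipocytes (7 of 7) and -1.01 for fibroblasts and synovium (8 of 9). All 10 neutrophil and bone marrow markers were above 0, with a median of 1.08. None of these markers was called, the summed levels of the lists overlapped between the weeks, and their part in the values of the 38 genes was not tested.

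In DMM knees, 15 of the 38 genes (39.5%) differed between 12 and 4 weeks at an adjusted p under 0.05 in edgeR, where 4980 of 20951 transcripts (23.8%) did. Linker, chondroitin chain and chondroitin sulfation enzymes made up 8 of the 9 genes that were higher at 12 weeks, and the 6 lower genes comprised both dermatan epimerase genes, 3 heparan sulfate enzymes and the sulfatase Sulf1. By direction, 12.1% of all transcripts were called higher and 11.7% lower. Libraries of the 2 weeks that did not overlap were common in this comparison. They lay higher at 12 weeks for 13 of the 38 genes and 4965 of the 20951 transcripts, and lower for 7 and 4056. At an unadjusted p under 0.05 there were 21 of the 38 (55.3%) against 39% of all transcripts, and DESeq2 called 18 where it called 29.1% of all. The median log2 difference of the 38 genes was 0.13 against -0.03 over all transcripts, and 0.03 to 0.17 when each library was left out.

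Among linkage enzymes, B4galt7, B3galt6 and B3gat3 rose. B4galt7, which adds the galactose next to xylose, was at 15.6, 10.9 and 8.26 CPM at 4 weeks and at 24.0, 24.4 and 27.2 CPM at 12 weeks. All 12-week libraries were higher, by a log2 difference of 1.08 ± 0.24 (adjusted p = 0.0129 in edgeR). B3galt6, which adds the next galactose, was at 14.4, 9.99 and 6.95 CPM and then at 17.3, 22.1 and 19.8 CPM, a log2 difference of 0.87 ± 0.26 (adjusted p = 0.037 in edgeR). B3gat3, which completes the linker, was at 25.1, 23.1 and 22.2 CPM and then at 39.3, 43.7 and 38.3 CPM, a log2 difference of 0.74 ± 0.16 (adjusted p = 0.012 in edgeR). The weeks did not overlap for any of these 3 genes, but B3galt6 was called in 1 of the 6 fits that each left out a library (highest adjusted p = 0.111 in edgeR). The summed level of the 5 linkage enzymes was 56.2 to 92.6 CPM at 4 weeks and 116 to 127 CPM at 12 weeks (exact permutation p = 0.1, the smallest possible).

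Among the chondroitin polymerizing genes, Chpf and Chsy3 rose. Chpf was at 61.8, 40.1 and 37.4 CPM at 4 weeks and at 80.1, 96.3 and 76.6 CPM at 12 weeks, a log2 difference of 0.82 ± 0.22 (adjusted p = 0.0257 in edgeR). Chsy3, a chondroitin synthase, was at 10.7, 7.59 and 5.76 CPM and then at 14.5, 20.5 and 11.8 CPM, a log2 difference of 0.91 ± 0.28 (adjusted p = 0.0398 in edgeR). For both genes every 12-week library was above every 4-week library, though the lowest 12-week library of Chsy3 was only slightly above the highest 4-week one. Each was called in 1 of the 6 fits that left out a library, with a highest adjusted p of 0.106 for Chpf and 0.143 for Chsy3 in edgeR. Chsy1, Chpf2, Csgalnact1 and Csgalnact2 did not pass the threshold, with log2 differences of -0.02 to 0.79 for the first pair and -0.46 and -0.23 for the other.

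Chondroitin sulfotransferases that rose were Chst3, Chst11 and Chst12. Chst3, which sulfates carbon 6 of N-acetylgalactosamine, had the largest rise of the 38 genes. It was at 26.0, 18.7 and 11.7 CPM at 4 weeks and at 37.7, 60.0 and 45.5 CPM at 12 weeks, a log2 difference of 1.30 ± 0.28 (adjusted p = 0.0126 in edgeR). Chst12, which like Chst11 sulfates carbon 4, was at 154, 98.6 and 76.3 CPM and then at 192, 264 and 241 CPM, a log2 difference of 1.04 ± 0.26 (adjusted p = 0.0208 in edgeR). Chst11 was at 22.6, 21.4 and 23.6 CPM and then at 34.3, 50.1 and 40.3 CPM, with little spread at 4 weeks and a log2 difference of 0.84 ± 0.18 (adjusted p = 0.0122 in edgeR). None of these 3 genes had overlapping weeks, and Chst12 was called in 2 of the 6 fits that left out a library (highest adjusted p = 0.0782 in edgeR). In control knees the same difference between weeks was 0.28 ± 0.28 for Chst3, 0.09 ± 0.28 for Chst12 and 0.22 ± 0.33 for Chst11, none past the threshold.

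The epimerase genes of dermatan sulfate fell in DMM knees. Dse, which converts glucuronic to iduronic acid, was at 100, 98.8 and 110 CPM at 4 weeks and at 56.0, 75.3 and 56.2 CPM at 12 weeks, a log2 difference of -0.77 ± 0.18 (adjusted p = 0.0158 in edgeR). Dsel was at 22.8, 22.6 and 28.5 CPM and then at 11.0, 12.0 and 9.55 CPM, a log2 difference of -1.23 ± 0.19 (adjusted p = 0.00516 in edgeR). The weeks were apart for both genes, and Dse was called in 3 of the 6 fits that left out a library, Dsel in all 6. In control knees Dse had a log2 difference of -0.62 ± 0.28 and Dsel one of -0.84 ± 0.21, neither past the threshold.

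Heparan sulfate genes moved in both directions. Ext1 was at 26.1, 17.2 and 24.6 CPM at 4 weeks and at 10.2, 11.2 and 8.23 CPM at 12 weeks in DMM knees, a log2 difference of -1.24 ± 0.22 (adjusted p = 0.00685 in edgeR). Glce was at 24.8, 23.1 and 23.4 CPM and then at 8.87, 14.6 and 10.2 CPM, a log2 difference of -1.13 ± 0.21 (adjusted p = 0.00786 in edgeR). Extl2, another member of the exostosin family, was at 40.7, 37.3 and 53.6 CPM and then at 23.8, 29.7 and 26.1 CPM, a log2 difference of -0.77 ± 0.19 (adjusted p = 0.0187 in edgeR). These 3 genes fell with no overlap between weeks, and Extl2 was called in 3 of the 6 fits that left out a library. Extl1 rose from 15.6, 6.79 and 6.13 CPM to 23.2, 22.6 and 24.2 CPM, a log2 difference of 1.25 ± 0.32 (adjusted p = 0.0229 in edgeR). Sulf1 fell from 114, 107 and 125 CPM to 51.2, 58.4 and 45.4 CPM, a log2 difference of -1.20 ± 0.17 (adjusted p = 0.00408 in edgeR, the smallest of the 38). For Extl1 and Sulf1 the weeks did not overlap. Sulf1 was called in all 6 fits that left out a library and Extl1 in 2 of them (highest adjusted p = 0.0784 in edgeR). The second sulfatase, Sulf2, had a log2 difference of -0.29 ± 0.20 that did not pass. No gene of sulfate and sugar supply passed the threshold, and Ugdh and Papss2 had log2 differences of -0.62 ± 0.23 and 0.16 ± 0.25. In control knees the log2 differences were -1.77 ± 0.36 for Ext1, -0.36 ± 0.20 for Glce and -0.59 ± 0.20 for Extl2. They were -0.47 ± 0.43 for Extl1, -0.77 ± 0.36 for Sulf1 and -0.68 ± 0.28 for Sulf2, and none of these passed the threshold.

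**Figure D4:**
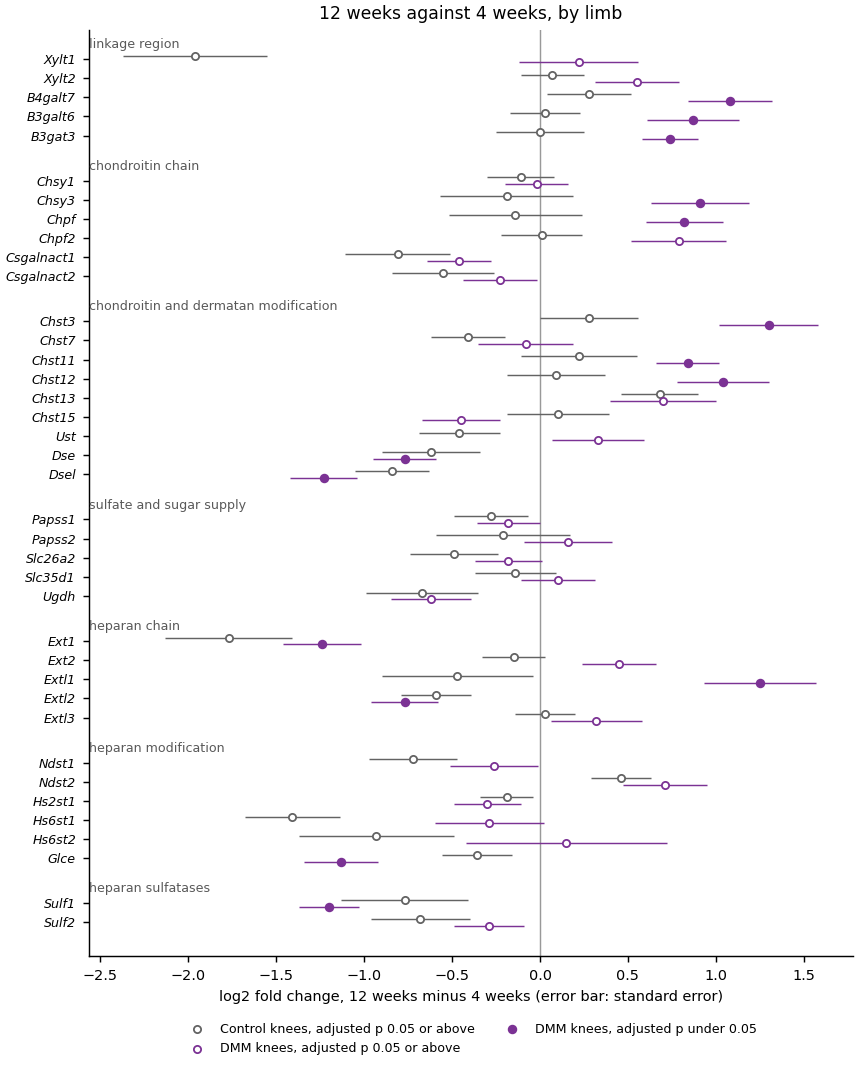
Log2 difference, 12 weeks against 4 weeks, of each gene in control and in DMM knees with bars of 1 standard error (edgeR), ordered by role. In DMM knees 9 genes were called higher and 6 lower at an adjusted p under 0.05, where 12.1% and 11.7% of all transcripts were. In control knees none was called, where 0% of all transcripts were.

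The calls in DMM knees depended on single libraries. B4galt7, Chst3, Dsel, Ext1, Glce and Sulf1 were called whichever library was left out. The number called was 7 without DMM replicate 2 of 4 weeks, 9 without replicate 3 of 4 weeks, 10 and 8 without replicates 1 and 3 of 12 weeks, and 21 without replicate 1 of 4 weeks. Over the same weeks in DMM knees, the fibroblast and synovium sum was lower at 12 weeks (2964 to 4260 CPM at 4 weeks, 1051 to 2325 CPM at 12 weeks) and the sum of 10 neutrophil and bone marrow genes was higher (13590 to 20190 CPM, then 21260 to 34640 CPM). The endothelium sum (166 to 192 CPM, then 101 to 134 CPM) and the adipocyte sum (295 to 497 CPM, then 131 to 196 CPM) were lower at 12 weeks too. By gene, edgeR called 5 of 7 macrophage, 4 of 8 endothelium, 6 of 9 fibroblast and synovium and 5 of 7 adipocyte markers lower, with median log2 differences of -1.30, -0.73, -1.47 and -1.37. The chondrocyte markers had a median log2 difference of 0.42, with 4 of 18 called higher. Of the osteoblast and osteocyte markers 2 were called higher and 2 lower, and 18 of 18 muscle markers tested were above 0 with a median of 1.11, none called and with overlapping sums. The part of these differences in the calls was not tested. The comparisons share libraries with each other, and their values are set side by side for that reason only.

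Other genes of glycosaminoglycan metabolism were described in the same fits. Of 23 further synthesis genes, 18 breakdown genes and 23 core proteins, none was called between limbs at either week. At 4 weeks the lowest p among further synthesis genes belonged to Hs3st3b1, a heparan 3-O-sulfotransferase, at 17.0 ± 7.25 CPM in control and 5.40 ± 2.74 CPM in DMM (SD, n = 3), a log2 fold change of -1.65 ± 0.45 (adjusted p = 0.255 in edgeR). Among breakdown genes it belonged to Idua, the lysosomal iduronidase, with a log2 fold change of -0.61 ± 0.29. Among core proteins it was that of Lum, which encodes lumican, a keratan sulfate proteoglycan, at 622 ± 223 CPM in control and 2992 ± 825 CPM in DMM (SD, n = 3), a log2 fold change of 2.27 ± 0.38 (adjusted p = 0.18 in edgeR). At 12 weeks Lum again had the lowest p of the core proteins, at 303 ± 12.1 CPM in control and 964 ± 335 CPM in DMM (adjusted p = 0.0864 in edgeR), and 22 of the 23 core proteins were above 0 with a median of 0.60. The medians of further synthesis and breakdown genes were 0.32 and 0.00 at this week. Between weeks in DMM knees, edgeR called 4 further synthesis genes higher, among them the keratan sulfotransferase Chst1 (1.53 on the log2 scale), and 3 lower, among them Uap1, which makes UDP-N-acetylglucosamine (-0.77). It called 6 core proteins higher, among them aggrecan, Acan (1.29), and 3 lower, among them Lum (-1.68). Of the 18 breakdown genes none was called, and 2 had an unadjusted p under 0.05.

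Methylation of the same genes was read from oxidised bisulfite libraries, in which 5-methylcytosine (5mC) alone is read as C. At 4 weeks 1445146 cytosines, and at 12 weeks 1273156, had at least 10 reads in all 6 libraries. Over all cytosines of each single library, the median coverage was 22 to 102 reads at 4 weeks and 28 to 72 reads at 12 weeks. Promoters, taken as 1000 bases before to 1000 bases after the start of transcription, were nearly free of 5mC in all 38 genes. Library values ranged from 0 to 6.02% at 4 weeks and from 0 to 8.18% at 12 weeks. The median over the 38 genes was 0.771% at 4 weeks and 0.404% at 12 weeks, beside 0.799% and 0.466% over all promoters, of which 90.3% were below 10% at each week.

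Sequences of 3 promoters are given to show their CpG dinucleotides, for the epimerase genes Dsel and Dse, whose RNA differed between weeks, and for Chst13, whose promoter had the highest mean 5mC of the 38. Each is the 250 bases before the start of transcription on the strand of the gene, read 5′ to 3′ from the RefSeq assembly GRCm38.p6, with CpG dinucleotides in capitals. They lie at chr1:111864919-111865168 (Dsel, minus strand, 17 CpG), chr10:34207236-34207485 (Dse, minus strand, 25 CpG) and chr6:90325186-90325435 (Chst13, minus strand, 10 CpG).
Dsel: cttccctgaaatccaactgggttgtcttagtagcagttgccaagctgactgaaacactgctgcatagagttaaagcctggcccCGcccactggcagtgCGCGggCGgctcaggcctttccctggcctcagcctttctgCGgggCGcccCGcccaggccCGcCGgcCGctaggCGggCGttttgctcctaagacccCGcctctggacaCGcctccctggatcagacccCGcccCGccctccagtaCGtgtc
Dse: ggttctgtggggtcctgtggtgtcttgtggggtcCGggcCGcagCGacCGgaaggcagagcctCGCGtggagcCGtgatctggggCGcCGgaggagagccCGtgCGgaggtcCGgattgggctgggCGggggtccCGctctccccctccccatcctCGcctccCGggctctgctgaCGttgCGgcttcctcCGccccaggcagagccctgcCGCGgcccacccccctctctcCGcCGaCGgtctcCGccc
Chst13: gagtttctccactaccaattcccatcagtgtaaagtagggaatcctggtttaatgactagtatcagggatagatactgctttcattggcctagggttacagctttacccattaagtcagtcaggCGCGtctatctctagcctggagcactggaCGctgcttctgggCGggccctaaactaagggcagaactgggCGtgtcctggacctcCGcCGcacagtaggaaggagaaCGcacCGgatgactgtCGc
In the 300 bases from 250 before to 50 after the start, 5mC was 0.536 to 1.33% per library at 4 weeks and 0 to 0.501% at 12 weeks for Dsel, over 11 cytosines. It was 0.311 to 0.943% and 0.114 to 0.469% for Dse, over 34 and 26 cytosines. For Chst13 it was 1.51 to 3.46% and 0.423 to 3.66% over 8 cytosines. Over the 30 of 38 genes with an entry in the promoter table, the median number of CpG in these 300 bases was 23.5 (8 to 48), beside 7.0 over all 32851 promoters. GGGCGG, the core of an Sp1 site, was found on either strand in 23 of 30 (76.7%), beside 35.7% of all promoters. CCAAT on either strand was found in 12 (40.0%), beside 37.4%, and TATAAA on either strand in 2 (6.7%), beside 13.6%. These are matches of letters, without a measurement of binding.

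Promoter 5mC was compared between limbs with a quasi-binomial model of methylated and unmethylated reads. At 4 weeks none of 13959 promoters (0%) was called, with 411 at an unadjusted p under 0.05 and none of the 38 among them, and limma on log2 ratios called none either. At 12 weeks 413 of 13799 (2.99%) were called, 2.66% lower in DMM, and among the 38 genes only Sulf1. The promoter of Sulf1 (chr1:12691430-12693430, plus strand) had 3.26, 1.90 and 1.75% 5mC in control and 0.623, 0.963 and 1.13% in DMM over 22 cytosines with 791 to 2088 reads per library. The groups did not overlap, but all 6 values were low, and the difference was -1.40 percentage points (adjusted p = 0.0251, moderated F test with limma). It was not called without control replicate 1, without DMM replicate 1, with unweighted means of cytosines, or in the short window of 250 bases before to 50 after the start. Limma on log2 ratios, with or without a replicate block, called none of the 13799 promoters.

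Gene bodies, the rest of the transcribed region, were methylated at about the level of other genes. Of the 38 genes, 33 had at least 5 cytosines there, and their median 5mC was 64.8% at 4 weeks and 67.7% at 12 weeks, beside 66.7% and 69.7% over all gene bodies. B3galt6, Csgalnact2, Chst7, Dsel and Glce had too few cytosines to test. At 12 weeks B3galt6, over 3 cytosines, had 44.8, 30.9 and 34.5% in control and 63.0, 53.3 and 56.9% in DMM. Its limbs overlapped at 4 weeks, and those of Glce, over 2 cytosines, overlapped at 12 weeks. At 4 weeks none of 11399 gene bodies (0%) was called, with 166 at an unadjusted p under 0.05, none of them among the 33, and limma on log2 ratios called none. Without control replicate 2, the library with the deepest coverage, again none was called, but 2249 gene bodies and 12 of the 33 had an unadjusted p under 0.05. The median difference, DMM minus control, was -2.41 percentage points over the 33 genes and -1.03 over all, and 25 of 33 were lower in DMM where 71.4% of all were.

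At 12 weeks 882 of 11178 gene bodies (7.89%) were called, 7.22% lower in DMM, and 6 of the 33 genes were called, all lower in DMM: Dse, Hs6st1, Ust, Chst12, Papss1 and Ndst1. The median difference was -2.30 percentage points over the 33 genes against -1.38 over all. In 29 of 33 genes 5mC was lower in DMM, where 73.7% of all gene bodies were. The DMM libraries lay wholly below control in 9 of the 33, beside 21.8% of all, and wholly above in 1 (Extl3), beside 3.69%.

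Dse had the largest difference of the 33 genes. Its gene body (chr10:34151389-34207235, minus strand) held 39.9, 41.1 and 53.2% 5mC in control and 22.7, 30.7 and 33.3% in DMM, with 384 to 1147 reads per library. All DMM libraries were below all control libraries, by -15.8 percentage points (adjusted p = 0.0195, moderated F test with limma). At 4 weeks the values were 44.4, 18.7 and 27.4% in control and 23.2, 13.0 and 19.2% in DMM, with overlapping groups. The 14 cytosines measured at 12 weeks all lie in intron 1 of this transcript of 6 exons, in 2 short stretches, where the cytosines on both strands of a CpG were counted separately. All 14 had a lower mean in DMM, and in 9 of them every DMM library was below every control library. In the stretch at chr10:34186688-34186758, with 7 cytosines, 5mC was 31.5, 34.5 and 48.8% in control and 20.6, 23.7 and 27.6% in DMM. In the stretch at chr10:34188561-34188915, with 7 cytosines, it was 51.1, 55.8 and 57.0% in control and 27.7, 41.0 and 41.3% in DMM. Both stretches had non-overlapping limbs. These cytosines and stretches hold the reads on which the gene was called, so their values add no further test. The first is shown with 20 bases on each side (chr10:34186668-34186778, GRCm38.p6, strand of the gene, 5′ to 3′), with the 5 CpG measured at 12 weeks in capitals.
Dse intron 1: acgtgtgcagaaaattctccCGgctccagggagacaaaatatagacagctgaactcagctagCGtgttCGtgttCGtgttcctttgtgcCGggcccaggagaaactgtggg
RNA of Dse was at 59.9, 69.5 and 46.3 CPM in control and at 56.0, 75.3 and 56.2 CPM in DMM at the same week, a log2 fold change of 0.10 ± 0.18 that did not pass the threshold.

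The other called gene bodies had smaller differences. Hs6st1 had 57.6, 59.0 and 58.0% 5mC in control and 48.6, 52.0 and 51.8% in DMM (-7.41 percentage points, adjusted p = 0.0176, moderated F test with limma). Of its 33 cytosines, 25 lie in introns and 8 in coding exons, and 22 had a lower mean in DMM. Ust, a uronyl 2-O-sulfotransferase of chondroitin and dermatan sulfate, had 76.2, 73.3 and 77.8% in control and 66.1, 68.9 and 71.3% in DMM (adjusted p = 0.0187, moderated F test with limma). All of its 61 cytosines are intronic, and 47 had a lower mean in DMM. For both genes the limbs did not overlap. Chst12 had 58.4, 55.2 and 57.0% in control and 47.6, 52.1 and 51.0% in DMM, Papss1 72.7, 69.4 and 75.1% in control and 64.7, 68.1 and 66.5% in DMM, and Ndst1 60.1, 60.4 and 62.5% in control and 54.2, 57.0 and 55.6% in DMM. Adjusted p-values were 0.0318, 0.0464 and 0.0274 in the same test, and these limbs did not overlap either. The RNA of none of the 6 genes differed between limbs at an adjusted p under 0.05.

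**Figure D5:**
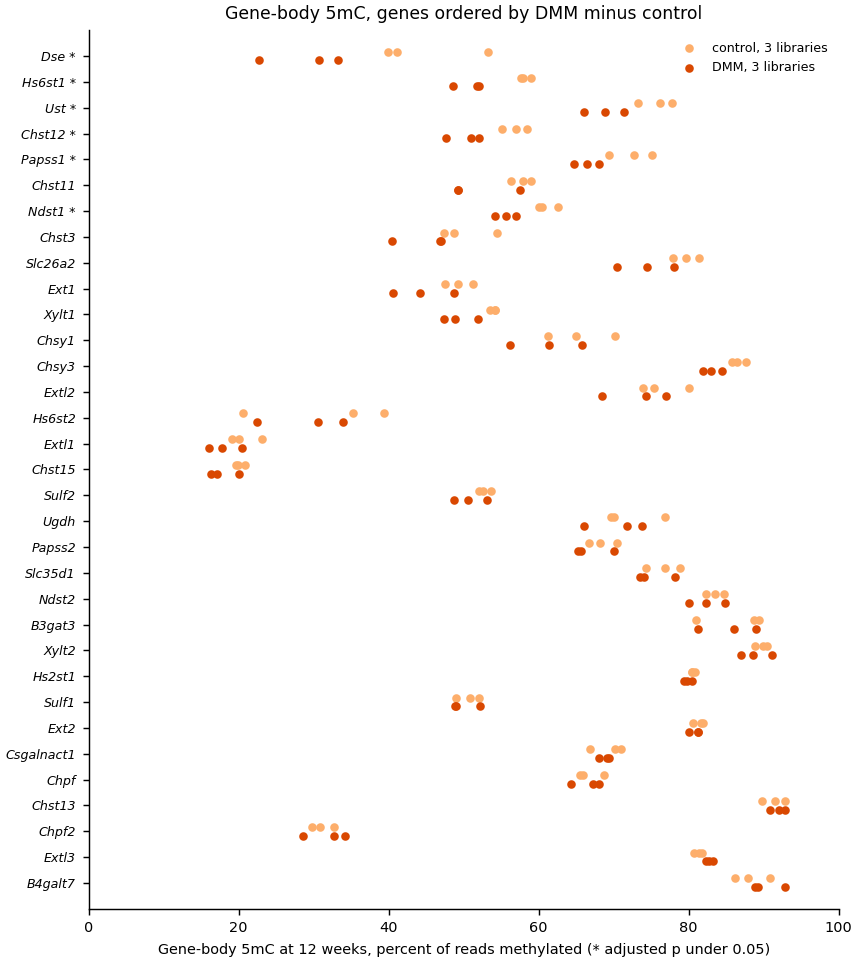
5mC of 33 gene bodies in each oxidised bisulfite library at 12 weeks (percent of reads methylated, axis from 0 to 100), ordered by the difference of DMM and control, with asterisks at an adjusted p under 0.05. The DMM libraries of Dse, Hs6st1, Ust, Chst12, Papss1 and Ndst1 all lie below their control libraries.

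These calls were not stable to the test or to single libraries. None of the 6 was called by limma on log2 ratios, by an unweighted mean over cytosines, without control replicate 1 or without control replicate 3. Dse and Ust were called without DMM replicate 1, Dse, Hs6st1 and Ust without DMM replicate 3, and 10 genes without DMM replicate 2. Control replicate 2 and DMM replicate 1 carry titles of another style than the other 12-week libraries, whose titles also differ slightly in style between the limbs. Without both, Dse, Ndst1, Ust and Xylt1 were called, among 892 gene bodies.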

How the data were processed

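The RNA values are raw counts per RefSeq transcript, deposited by the authors after trimming (FLEXBAR), alignment (STAR) and counting (featureCounts). The labels describe poly(A) libraries, the published methods a low-input template-switching kit. Whether counting used strand is not given in the sources used here. For RRoxBS, the authors deposited the coverage and the percent of C per CpG cytosine with at least 10 reads. Mock-oxidised libraries were not used.

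Symbols, coordinates and promoters came from RefSeq on GRCm38.p6, after 2989 of 2989 cytosines of these promoters were checked to be the C of a CpG there. Counts were tested with edgeR 4.0.16 (R 4.3.3): TMM factors, filterByExpr, robust quasi-likelihood, Benjamini-Hochberg over all transcripts tested, threshold 0.05. CPM were scaled with TMM factors over all 12 libraries. Reads of a region were summed per library and fitted with a quasi-binomial model whose dispersions were moderated with limma 3.58.1, over regions with at least 5 cytosines. The tests were checked on simulated data. Of transcripts given a log2 change of 1.5, 55.8% were recovered between limbs at 4 weeks and 72.1% at 12 weeks. For the interaction 30.3% were recovered, and between weeks 46.9% in control and 76.6% in DMM knees. In DMM knees 23 unchanged transcripts were called beside 151 changed ones. Of 200 regions of intermediate 5mC moved by 15 percentage points, 198 to 200 were recovered per test, with 15 to 56 unchanged regions called. All simulated regions had the same overdispersion. The share recovered therefore does not apply to promoters nearly free of 5mC. Nor does it apply to smaller differences, as in all the regions called here except Dse.

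All 38 genes enter the counts and medians, and some, such as Chst13, Ust, Ndst1 and Extl3, have no RNA value printed. For genes called by edgeR or the quasi-binomial model, the values of every library of that comparison are given. The same holds for the 6 genes with the smallest unadjusted p at each week between limbs. Levels are given for the highest gene per length of each role. Genes, lists and promoters shown were chosen with earlier results of these data known. The sources do not say whether equally numbered control and DMM pools came from the same mice, so p-values measure the spread between pools. Alternatives were other normalizations, filters, tests (DESeq2 1.42.0, limma), windows and coverage minimums, a replicate block, and leaving out each library.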

Additional observations from a re-analysis of the deposited data

How the results depend on the processing

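Median log2 values of the 38 genes kept their sign in all 5 RNA comparisons under every alternative run, although at 4 weeks the median fell to -0.02 without control replicate 1, with 18 genes above 0 and 20 below. No value called in either fit changed sign. Values that were not called did so under at least 1 alternative in 10 of the 38 genes at 4 weeks, 5 at 12 weeks, 6 for the interaction, 13 between weeks in control knees and 8 in DMM knees. Counts of calls were less stable. Between limbs at 4 weeks, transcripts called went from 16 to 0 with at least 10 counts in every library or 1 transcript per gene, to 35 in a fit of all 12 libraries, to 751 in DESeq2 (1 of the 38, Dsel), and to 0 to 118 when each library was left out. Their direction changed as well, from 13 higher and 3 lower to 1 and 7 without control replicate 1, 36 and 82 without control replicate 3, 288 and 463 in DESeq2 and 45 and 309 with the replicate block. At 12 weeks the 1 transcript became 56 without a filter, 62 at an adjusted p under 0.1, 868 in DESeq2 (2 of the 38) and 0 to 860 when each library was left out (0 to 3 of the 38, the most without control replicate 2). For the interaction, DESeq2 called 16 transcripts and leaving out a library gave 0 to 3. Between weeks in control knees, where edgeR called 0, the fit of all 12 libraries called 1229 transcripts (4 of the 38), DESeq2 2592 (4), an adjusted p under 0.1 832 (3), and leaving out a library 0 to 3926 (0 to 12, the most without control replicate 3 of 4 weeks). In DMM knees the 4980 transcripts became 3187 with 1 transcript per gene, which tests fewer transcripts, and 1995 to 7441 when each library was left out (7 to 21 of the 38, with medians of 0.03 to 0.17).

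With the replicate number as a block, edgeR called 354 transcripts at 4 weeks (1 of the 38, Xylt1, lower in DMM, adjusted p = 0.0328) and 734 at 12 weeks (3 of the 38, Sulf2, Chpf and Chsy3, higher, adjusted p = 0.0455, 0.0406 and 0.0402). Between weeks in DMM knees it called 17 of the 38. Pools of different weeks came from different mice, however, so equal numbers pair nothing in that fit. Deviations of equally numbered control and DMM libraries correlated by 0.381, -0.419 and 0.103 at 4 weeks and -0.623, 0.423 and -0.264 at 12 weeks, and not every library correlated best with its own number. These 3 pairs per week gave no sign of pairing and do not exclude it, and the sources leave unsaid whether equal numbers mark the same mice, so the fit without the block is the one reported. With the block, none of the 38 was called for the interaction or between weeks in control knees, where equal numbers join different mice as well.

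For promoter 5mC at 4 weeks, leaving out a library gave 0 to 124 calls, the most without control replicate 2, and 0 for gene bodies, although 2249 of these (12 of the 33) then had an unadjusted p under 0.05, against 166 (0). At 12 weeks the 413 promoters called (1 of the 38) became 0 (0) in limma on log2 ratios with or without a replicate block, 2 (0) with unweighted means of cytosines, 76 (0) in the short window, and 74 to 411 (0 to 1) when each library was left out. The 882 gene bodies called (6 of the 33) became 0 (0) in limma with or without a replicate block, 47 (0) with unweighted means, and 95 to 1255 (0 to 10) when each library was left out. Without both 12-week libraries with titles of another style, an alternative chosen after seeing the data, 310 promoters and 892 gene bodies were called. The cause of these changes was not tested. Pools of 3 knees and 3 libraries per group limit every comparison, and 8 to 34 counts per library limit Hs6st2. At 4 weeks no promoter or gene body was called without DMM replicate 2, the library of lowest coverage (median of 22 reads) or at a coverage of at least 20 reads.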
